A study of Mus musculus with 2 samples.

Results

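The zona pellucida genes Zp1, Zp2 and Zp3 and the genes of the oocyte-secreted proteins GDF9, BMP15 and OOSP1 were examined on the deposited microarrays of cultured mouse ovary. All non-control probes whose RefSeq accession belongs to these 6 genes were taken, which gave 7 probes. These are 6 of the 20658 genes that could be named on the array, and 15258 genes gave signal well above background in both samples. Symmetrical pieces of ovaries from mice aged 2 weeks were kept in culture for 3 days with ligands of TACR1, TACR2 and TACR3, the receptors of tachykinins (TKs), each ligand at 1 μM. The agonist sample received a selective substance P analog for TACR1, GR-64349 for TACR2 and a succinylated substance P fragment for TACR3, and the antagonist sample received a TACR1 antagonist, GR-94800 for TACR2 and SB218795 for TACR3. The strain of the ovaries on the arrays and the number of ovaries behind each RNA are not given in the sources used here. The comparison addressed which genes differ when TK signaling is driven or blocked. Each sample was hybridised to 1 single-colour array, so the spread between ovaries is unknown and the values below are descriptions without tests. An untreated ovary was not analysed here.

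The zona pellucida is the glycoprotein coat that a growing oocyte lays down around itself, and in the mouse its filaments are built from ZP1, ZP2 and ZP3. ZP2 and ZP3 form the repeating units of the filaments and ZP1 cross-links them. GDF9 and BMP15 are members of the TGF-beta family that the oocyte secretes toward the surrounding granulosa cells, where they support granulosa cell proliferation and hold back early differentiation. OOSP1 is a small secreted protein of the oocyte. In an ovary the transcripts of these genes come almost entirely from oocytes in growing follicles, so they report on the germ cell compartment of a tissue that consists mostly of somatic cells.

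Upstream sequences are shown for Zp3, Bmp15 and Oosp1 because these are the members for which the RefSeq promoter table held an entry, and because transcription of zona genes depends on E-boxes bound by the oocyte factor FIGLA. Each sequence covers the 250 bases before the annotated start of the gene in build GRCm38.p6, printed 5′ to 3′ on the strand of the gene. Capitals mark matches on either strand. The E-box was searched as CANNTG. The homeodomain site, of the kind bound by NOBOX, was searched as TAATTG and, as a variant that overlaps it in all but the last base, as TAATTA. The TATA box was searched as TATAAA.
Zp3 (chr5:135979855-135980104, plus strand): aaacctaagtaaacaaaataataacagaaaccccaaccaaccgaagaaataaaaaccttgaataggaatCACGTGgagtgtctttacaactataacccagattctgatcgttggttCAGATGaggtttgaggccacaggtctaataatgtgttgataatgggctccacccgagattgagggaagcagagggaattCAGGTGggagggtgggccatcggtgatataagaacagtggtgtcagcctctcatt
Bmp15 (chrX:6320725-6320974, minus strand): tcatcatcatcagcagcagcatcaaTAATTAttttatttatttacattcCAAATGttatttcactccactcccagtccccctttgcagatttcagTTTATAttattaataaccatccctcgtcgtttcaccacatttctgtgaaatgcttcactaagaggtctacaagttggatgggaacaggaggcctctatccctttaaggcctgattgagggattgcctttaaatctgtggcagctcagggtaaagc
Oosp1 (chr19:11691052-11691301, minus strand): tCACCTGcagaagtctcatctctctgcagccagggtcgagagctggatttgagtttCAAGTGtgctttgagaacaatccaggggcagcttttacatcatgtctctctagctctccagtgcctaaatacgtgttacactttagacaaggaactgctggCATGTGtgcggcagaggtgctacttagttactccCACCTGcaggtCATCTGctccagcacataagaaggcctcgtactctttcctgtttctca
The Zp3 window held 3 E-box matches, of which the nearest to the start began 55 bases upstream. The Oosp1 window held 5 and the Bmp15 window 1. An E-box match is common, since 66.2% of the 32851 windows of this length in the table held at least 1. The Bmp15 window also held TAATTA, found in 4.84% of windows, and TATAAA on the opposite strand, found in 12.4%. TAATTG, found in 7.17% of windows, was in none of the 3 sequences. These matches describe the letters of the windows and not bound sites.

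The zona pellucida transcripts were bright on both arrays. The Zp1 probe (NM_009580) had a processed signal of 14495 ± 1449 (error given by the scanner software) with TKR agonists and 12419 ± 1242 with TKR antagonists. The Zp2 probe (NM_011775) had signals of 2789 ± 279 and 2114 ± 211, and the Zp3 probe (NM_011776) had signals of 20115 ± 2011 and 18563 ± 1856, in the same order. Every zona probe gave the higher unscaled signal on the agonist array. That array was brighter in general, with a 75th percentile of 672 signal units against 569 with antagonists. The lowest signal marked well above background was 18.1 with agonists and 19.9 with antagonists, so even the Zp2 signal with antagonists stood 106-fold above that limit. Passing this limit is a weak criterion, as Prm1, a sperm gene named after its value was seen, gave 1261 and 850 signal units.

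Among the secreted factors, the Gdf9 probe (NM_008110) had a signal of 95396 ± 9540 with agonists and 85421 ± 8542 with antagonists, and no spot on either array was saturated. The Bmp15 probe (NM_009757) had signals of 2469 ± 247 and 1802 ± 180. Oosp1 (NM_133353) was measured by 2 probes, of which the brighter had signals of 22194 ± 2219 and 17879 ± 1788 and the dimmer 7187 ± 719 and 5623 ± 562. Each of the 7 probes was again higher with agonists before scaling, on the array that was brighter in general. Each was printed at 1 spot. The software's error was nearly the same fraction of the signal at all 7 probes, so it was not a spread measured between spots. It does not cover the ovaries. Probes differ in how well they bind, so the order of signals between genes is not an order of transcript levels.

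**Figure D1:**
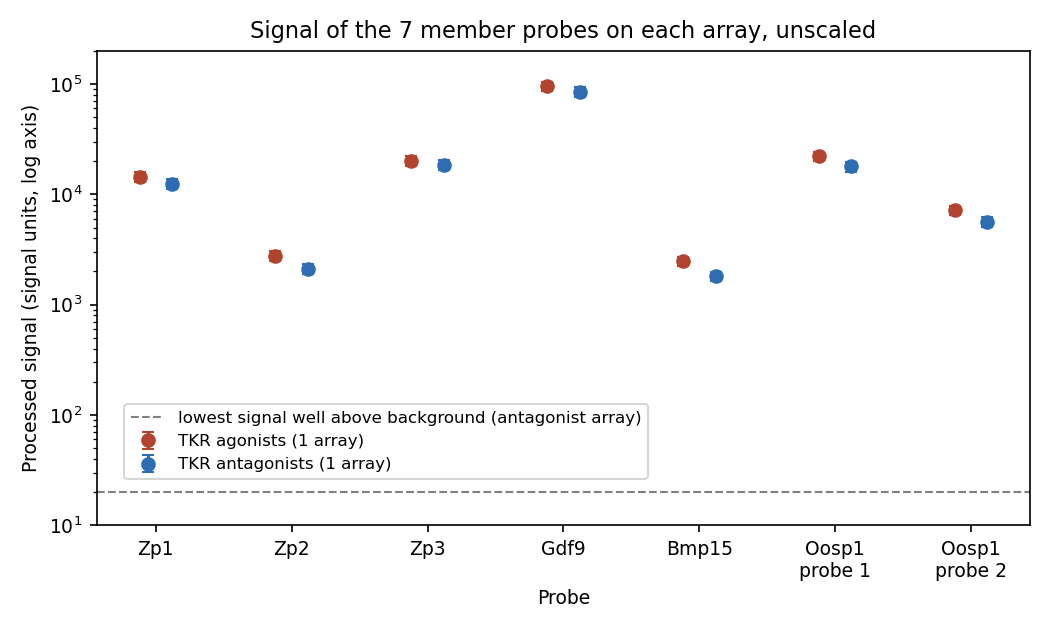
Processed signal (signal units, log axis, unscaled) of the 7 probes on the agonist array (red) and the antagonist array (blue), with the scanner software's error of each spot as bars. The lowest point is Bmp15 with antagonists at 1802 signal units. It lies far from the dashed line at the lowest signal well above background on the antagonist array (19.9). Each red point is the higher of its pair, on the array that was brighter in general.

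Within each array, all 7 probes ranked in the brightest 14.6% of the 55674 non-control probes. The Gdf9 probe was at rank 548 with agonists and 576 with antagonists, counted from the brightest, which is the top 0.984% and 1.03%. The Zp3 probe was at ranks 1757 and 1771, the Zp1 probe at 2206 and 2317, and the Zp2 probe at 6708 and 7431. The Bmp15 probe was at 7206 and 8115, and the Oosp1 probes were at 1639 and 1813 and at 3564 and 3963. A rank does not depend on scaling by a constant, and all 7 probes ranked nearer to the brightest on the agonist array, as did 41.2% of all probes well above background in both samples. The shift was smallest for Gdf9 and Zp3 and widest for Bmp15.

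For the comparison between the samples, signals were put on the log2 scale after division by the array's 75th percentile (672 signal units with agonists, 569 with antagonists), and the log2 ratio subtracts the antagonist value from the agonist value. The members scarcely differed. Zp2 had a log2 ratio of 0.16, Zp1 of -0.02 and Zp3 of -0.13. Gdf9 had -0.08 and Bmp15 0.21, which is 1.16-fold. The Oosp1 probes gave 0.07 and 0.11. The software's error of such a ratio was 0.20 for each probe, and 5 of the 6 genes lay within it of 0, with Bmp15 just outside. Small ratios were common, as the quartiles of all genes well above background in both samples were -0.27 and 0.15. Probes printed at 10 spots gave a second and narrower measure of precision. The SD of the log2 ratio between their spots had a median of 0.06 and a maximum of 0.10 over the 86 such probes in the members' signal range. This SD covers spots within 1 pair of arrays, and not the spread between arrays or between ovaries.

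None of the 6 genes reached a 2-fold difference, against 3.4% of the 33073 probes, and 4.59% of the 15258 genes, well above background in both samples. Of those probes 2.69% were at least 2-fold higher with agonists and 0.705% at least 2-fold lower. The members' median log2 ratio was 0.03, with 3 genes above 0 and 3 below, beside a median of -0.10 for all genes. The sign of Zp1, Zp3 and Gdf9 was set by the scaling. Without scaling all 6 genes were above 0, and so was the median of all genes (0.15). Relative to the median of all genes, 5 of the 6 genes lay higher and Zp3 lay slightly lower. A log2 ratio within the members' range was common, since 5036 of the 15258 genes (33.0%) had one. In whole tissue, a different number of oocytes and a different amount of RNA per oocyte cannot be told apart.

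**Figure D2:**
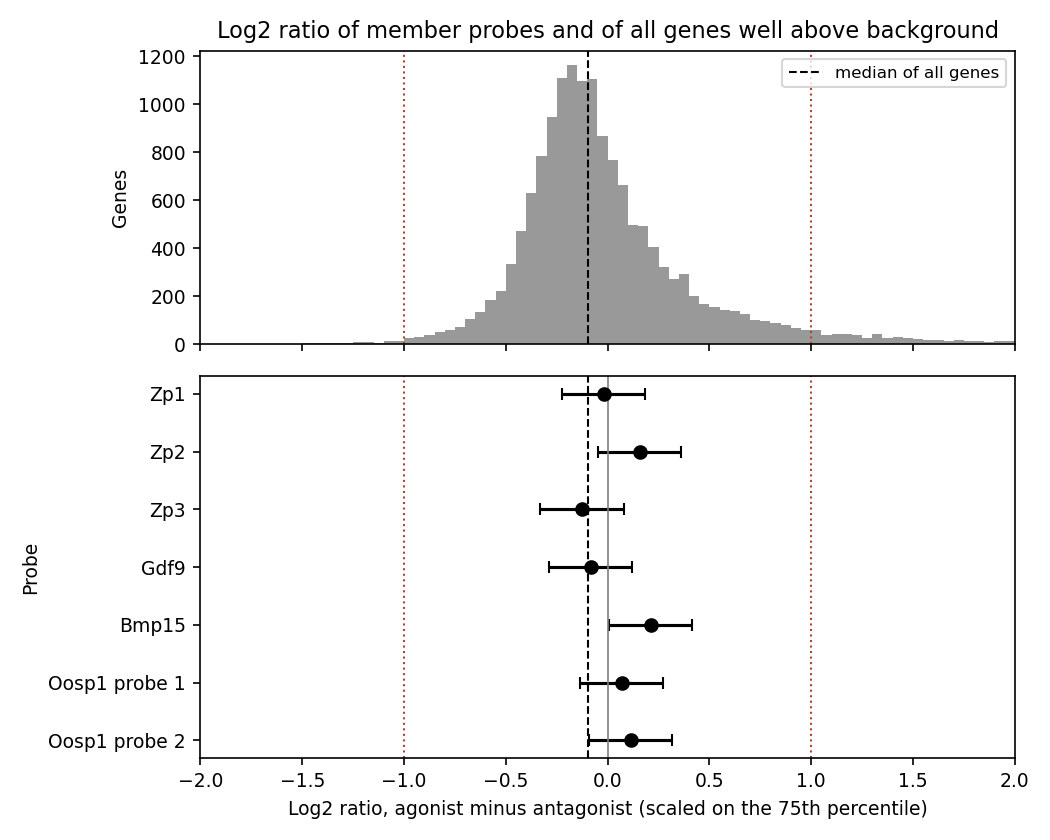
Top, number of genes at each log2 ratio of agonist minus antagonist for the 15258 genes well above background in both samples (bins of 0.05, 113 genes beyond 2 in either direction not drawn). Bottom, the log2 ratio of each of the 7 probes with the software's error as bars. The dashed line is the median of all genes (-0.10) and the dotted lines mark 2-fold. All 7 probes sit between -0.13 and 0.21, within the bulk of genes.

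Differences among the members do not depend on a constant between the arrays. Bmp15 lay 0.34 above Zp3 and 0.29 above Gdf9 on the log2 ratio scale, and both differences just exceeded the software's error of a difference, 0.29. The other 13 of 15 pairs lay within that error, among them Zp2 and Zp3, which were 0.28 apart. Against the SD between spots, which came to 0.08 for a difference, 12 of the 15 pairs lay farther apart. The share of other gene pairs that lay farther apart than this was not computed. The SD of the log2 ratio was 0.13 over the members and 0.48 over all genes well above background in both samples. The members thus lay closer together than genes in general. The probes of Bmp15 and Zp2, the members of higher log2 ratio, also had the lower signals. After a loess correction for a trend of the ratio with signal, the distance between Bmp15 and Zp3 was 0.31 and that between Bmp15 and Gdf9 0.25, the latter within the software's error. With quantile normalization both lay within it, at 0.28 and 0.22. Zp3 remained the lowest and Bmp15 the highest member in 10 of the 11 other settings tried. Most of these could not change the distance between them, which was 0.34 in each setting other than quantile normalization, loess and normexp. Of those that could, quantile normalization and loess kept Zp3 lowest and Bmp15 highest. With the normexp background correction Gdf9 was lowest (-0.08) and Zp2 highest (0.24).

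**Figure D3:**
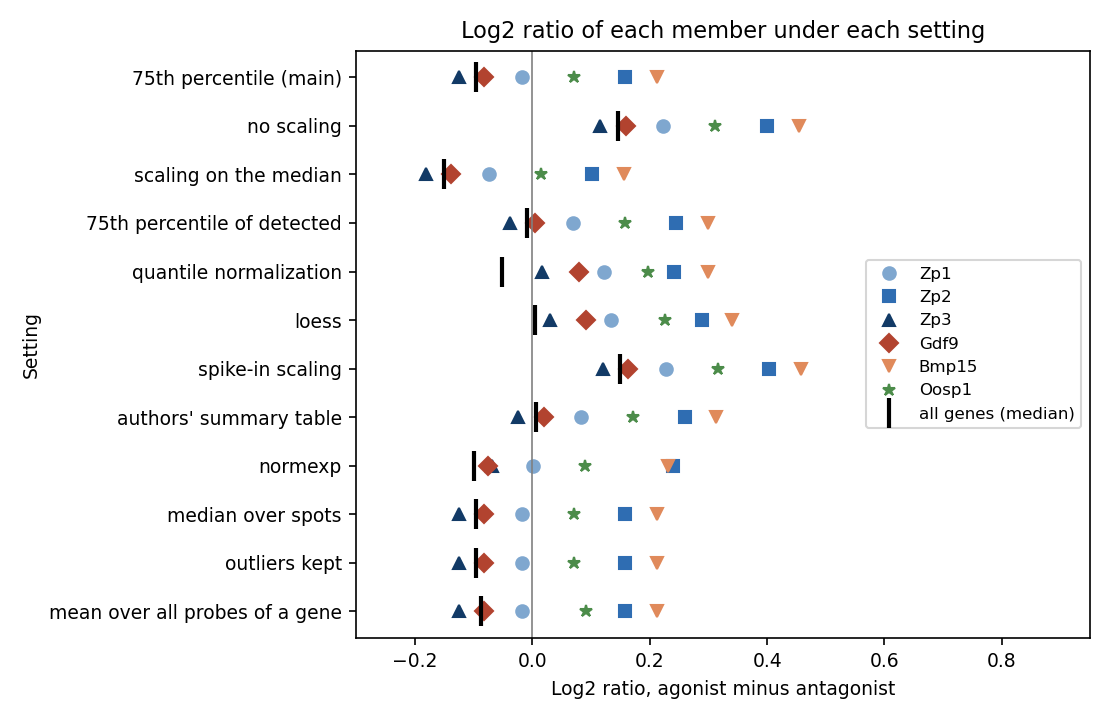
Log2 ratio of agonist minus antagonist (horizontal axis) of each of the 6 genes under the 75th percentile scaling and 11 other settings (vertical axis), with a black bar at the median of all genes. With scaling by a constant the points shift together with the black bar, with quantile normalization, loess and normexp they also shift relative to it, and 5 or 6 of the 6 genes lie to its right in every setting.

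Other transcripts of the oocyte gave a like picture. Of 24 genes listed as other oocyte transcripts, among them genes of RNA binding, the subcortical maternal complex and maternal stores, 23 were matched by accession. All 23 were well above background in both samples. Of the 23 genes, 19 lay above the median of all genes. Their median log2 ratio was 0.03, with 13 genes above 0, 10 below and none at 2-fold. Within the software's error of 0 lay 17 of the 23, while the quartiles of all genes were -0.27 and 0.15. The median of the 23 genes turned to -0.03 with scaling on the median. The brightest were H1f8, the oocyte linker histone (-0.00), Padi6 (0.03) and Tle6 (-0.16), both of the subcortical maternal complex. The largest ratio belonged to Kit, the receptor through which granulosa cells signal to the oocyte (0.71, 2 spots), which theca and mast cells also express. It was followed by Gja4, the oocyte connexin that endothelium also carries (0.36), and Dppa3, a maternal factor of the early embryo (0.32). The genes of this list nearest to the members' median were Padi6, the RNA-binding protein gene Dazl (0.03) and the BCL2 family gene Bcl2l10 (0.00). With 2 arrays, likeness rests on a single difference per gene.

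Of 11 genes that act on zona transcription or at the egg coat, 10 were well above background in both samples. Of these, 8 lay above 0, 2 below and none at 2-fold, and 9 lay above the median of all genes. Their median log2 ratio was 0.16. The median stayed above 0 in all 13 other settings tried. Figla, the transcription factor that drives the zona genes, had signals of 952 and 534 and a log2 ratio of 0.59. Sohlh1, a germ cell factor of early follicles, had 0.51 and Nobox, the homeodomain factor of the oocyte, 0.18. Figla and Sohlh1 thus lay outside the software's error of 0, whereas the zona genes themselves lay within it. Astl, the protease that cleaves ZP2 after fertilization, had 0.00. Cd9, an egg surface protein needed for sperm fusion that many somatic cells also carry, had 0.47. Taf4b, named after its value was seen, was well above background with agonists only and was at least 1.25-fold higher there, a bound that sets the scaled agonist signal against the lowest signal well above background on the antagonist array.

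GDF9 and BMP15 signal through the type II receptor BMPR2 with type I receptors, and their SMADs, the convertases that cut their precursors and their antagonists were listed with the receptors. Bmpr2 had a log2 ratio of -0.06. Among type I receptors, Bmpr1b, used by BMP15, had 0.30 at each of its 2 probes, Tgfbr1, used by GDF9, had 0.16 at each of 2, and Bmpr1a had -0.09. Acvr1b was dim at 37.7 and 24.1 signal units, with 0.40 and a software error of 0.35. The 2 probes of Acvr1c disagreed at -0.24 and 0.32. Of 20 genes, 19 were well above background in both samples. Among the 19, 8 lay above 0, 11 below and none at 2-fold, while 11 lay above the median of all genes. The list median of -0.06 was above 0 in 5 of 13 other settings, among them no scaling (0.18). The brightest were the signal transducers Smad5 (-0.15, and 0.04 at its other probe) and Smad4 (-0.37, and -0.14 at its other probe) and the activin-binding protein gene Fst (-0.78). Fst also had the largest ratio, followed by its relative Fstl3 (0.66) and the convertase gene Pcsk5 (0.63), whose other probe was not well above background on either array. Furin, a convertase of such precursors that was named after its value was seen, had 0.09.

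Follicle cell genes had a wider range of log2 ratios than the members, from -1.17 to 1.53. Of 19 genes known to respond to GDF9 and BMP15 in granulosa or cumulus cells, 15 were well above background in both samples. Of these, 2 lay above 0 and 13 below. Most genes of the array also lay below 0 under this scaling, with a median of -0.10, and 3 of the 15 lay above that median. The median of the 15 genes, -0.36, lay 0.38 below that of the members. This distance was 0.38 to 0.41 in every setting tried, though scaling by a constant cannot change it. Past the 2-fold limit stood 1 of the 15 genes on the higher side, beside 4.01% of all genes, and 2 on the lower side, beside 0.577%. The higher gene was Tnfaip6, which stabilises the hyaluronan matrix of the cumulus (1.53, with 1.33 the lowest of its 3 probes). The lower genes were Inhbb, the beta B subunit of inhibin and activin (-1.17), and Slc38a3, an amino acid transporter of cumulus cells (-1.01). The brightest genes of the list were the lactate dehydrogenase gene Ldha (0.14), the nucleotide synthesis gene Impdh2 (-0.36) and Inhbb.

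The other 4 genes of that list, named after their values were seen, were not well above background in both samples. Has2, the hyaluronan synthase of cumulus expansion, had signals of 109 with agonists and 4.41 with antagonists and was at least 4.65-fold higher with agonists. Ptgs2, which encodes COX-2, was at least 1.58-fold higher. Grem1, a BMP antagonist, was well above background with agonists only, at 21.6 signal units, and its bound did not exceed 1. Ptx3, a cumulus matrix protein, was not well above background on either array. The list does not sort genes by the direction of their response to GDF9 and BMP15. Has2, Tnfaip6 and Ptgs2 were higher with agonists, and Ldha had a log2 ratio of 0.14. Of the 15 genes well above background in both samples, 13 lay below 0. The log2 ratios of Gdf9 and Bmp15 were -0.08 and 0.21, and a link of the list to these was not tested. Each gene of the list was measured at 1 spot per probe except Ptgs2, at 10 spots, and no difference was tested.

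**Figure D4:**
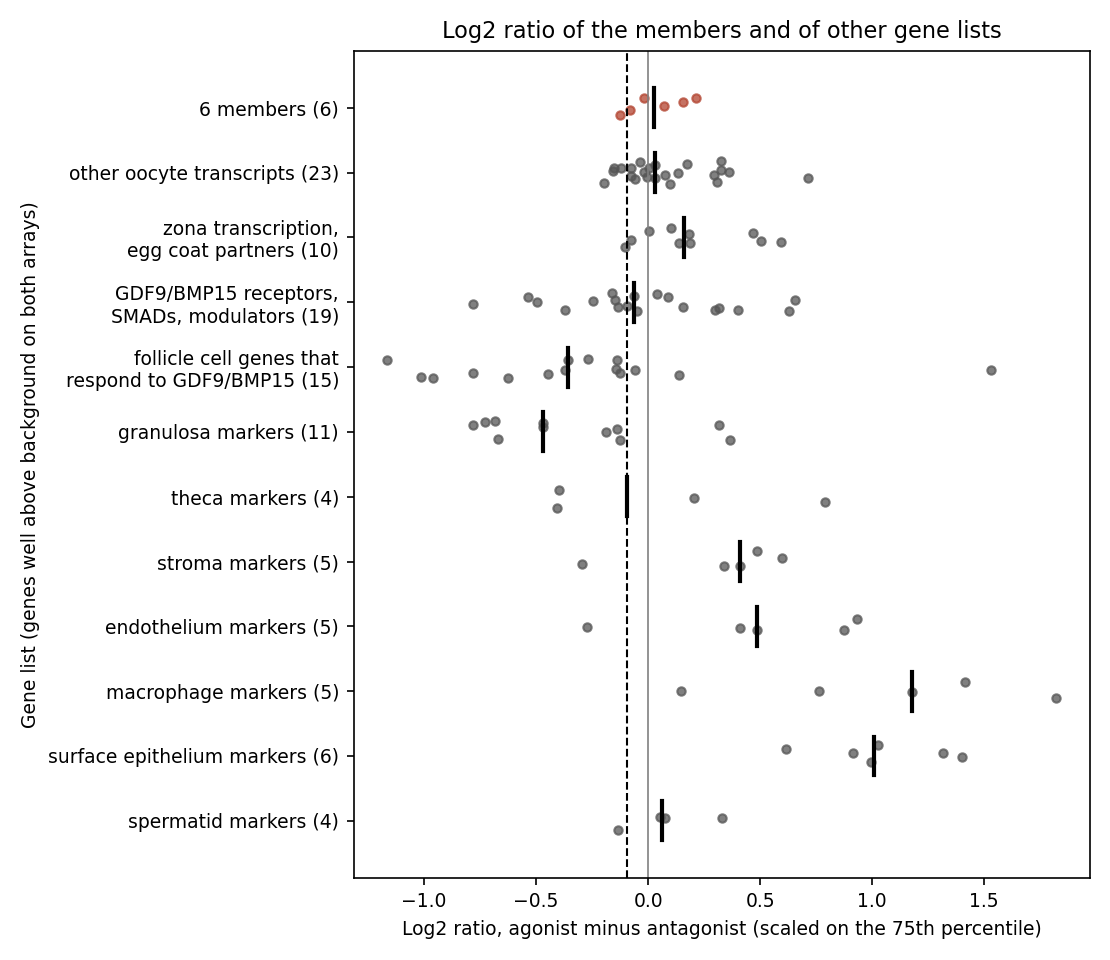
Log2 ratio of agonist minus antagonist (horizontal axis) of single genes (points, the number of genes in parentheses) and their median (black bars) for the 6 members (red), the related gene lists and cell type markers, all well above background in both samples. The dashed line is the median of all genes (-0.10). The members and the other oocyte transcripts both have medians of 0.03, the granulosa markers lie mostly to the left and the macrophage and surface epithelium markers to the right.

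Marker genes placed the members between somatic cell types. Of 11 granulosa genes, 9 lay below 0, with a median of -0.47, and 2 lay above the median of all genes. Their summed scaled level was 118 with agonists and 158 with antagonists. A summed level is set mostly by its brightest genes, here Inha (log2 ratio -0.68), named after its value was seen. The members' median lay 0.49 above that of the granulosa genes, and 0.39 to 0.52 above it over the settings tried. Scaling by a constant cannot change this distance. Of 5 matched macrophage genes 5 lay above 0 (median 1.18, summed level 12.2 and 9.24). Their median was 0.15 when probes under the 75th percentile of mean signal were left out, and 0.87 to 1.42 in the other settings. The 0.15 equals the log2 ratio of Csf1r, named after its value was seen. Above 0 also lay 6 of 6 surface epithelium genes (median 1.01, summed level 36.3 and 17.0). The same held for 4 of 5 tested endothelium genes (0.48, 60.6 and 54.2) and 4 of 5 stroma genes (0.41, 292 and 237). The theca median was -0.10 over 4 tested genes and changed sign in 7 of 13 settings, with summed levels of 85.1 and 84.1, and Lhcgr, the LH receptor gene of theca, named after its value was seen, was not well above background on either array. The summed scaled level of the other oocyte transcripts was 414 on both arrays, likewise set mostly by the brightest genes. This equality depends on the scaling, and without scaling the median log2 ratio of that list was 0.27. The part that the makeup of the tissue pieces plays in the ratios of the members was not tested.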

How the data were processed

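RNA of cultured ovary pieces was measured on SurePrint G3 Mouse arrays, 1 array per group, with Cy3 as the only dye. The authors deposited the spot intensity on a linear scale as Agilent Feature Extraction 10.10.1.1 gave it, after background subtraction and detrending and without scaling between arrays, and a summary table that equals this intensity times 1.99 (agonists) or 2.19 (antagonists). Groups came from the sample titles. The 2 arrays came from the same slide. From these files, control spots (after normexp) and outlier spots (165 and 159) were left out, intensities were divided by the array's 75th percentile and put on the log2 scale, and spots of a probe were averaged, leaving 55674 probes. A probe was called well above background if more than 50% of its spots were. Probes were named by accession through RefSeq transcripts of GRCm38 (27230 probes, while 453 of 26531 NM accessions found no symbol), and probes with other accessions were not matched. The probe of highest mean signal stood for a gene. The array was designed on mm9, so no probe coordinates are given. The spots well above background were 65.4% and 61.6%.

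The number of arrays limits the precision. The 6 genes and the gene lists were chosen with earlier results of these data known. Of each related list, the text names the 3 brightest genes and the 3 of largest log2 ratio, all receptors, and the 3 oocyte genes nearest to the members' median, and other genes are said to be chosen after their values were seen. No test was possible. Alternatives were other scalings (including 8 spike-in probes, quantiles and loess with span 0.3), the authors' table, normexp (offset 50, on the median spot signal), medians over spots, means over a gene's probes, outliers kept, other filters and a 4-fold threshold. The calculation was tested on simulated data. Python 3.11.15, numpy 2.4.6, pandas 2.3.3, matplotlib 3.10.9, R 4.3.3 and limma 3.58.1 were used.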

Additional observations from a re-analysis of the deposited data

How the results depend on the processing

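No paired analysis was possible because there is a single array for agonists and another for antagonists, and for the same reason no array could be left out. No member reached 2-fold in any setting. Without scaling every log2 ratio was higher by 0.24, and with spike-in scaling by 0.25, as the median of all genes shows, so the members' median was 0.27 in both settings, against 0.03, a shift made by the scaling itself. The members' median minus that of all genes stayed between 0.12 and 0.21 in every setting, though scaling by a constant cannot change it. Of 66 values of single members in the alternatives, 54 moved by less than the software's error and 12 by more, and 17 had the opposite sign. Of 143 list medians 27 moved by more than that error and 14 had the opposite sign. All 28 ranks stayed within 1.5 times. Those among probes well above background equalled the main ranks exactly, so the normexp ranks alone were informative. The 1123 probes at least 2-fold apart became 470 with normexp, 5672 with no filter on dim probes, 262 when probes under the 75th percentile of mean signal were left out and 145 at the 4-fold threshold, where fewer probes, more dim probes or a higher limit make the difference except for normexp, whose cause was not tested. Of the probes past 2-fold, 79.3% were higher with agonists, against 93.9% without scaling and 94.0% with spike-in scaling. All members passed the limit for signal well above background, which limits Has2, Ptgs2, Grem1, Ptx3 and Taf4b. Passing it does not show that a cell type is present, as 4 of 6 spermatid genes passed it.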

Other observations

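Spermatid transcripts served as a list of a cell type that an ovary lacks, and the genes named here were chosen after their values were seen. Zp3r, which encodes a sperm protein named for binding to ZP3, and Izumo1, the sperm partner of the egg receptor, were not well above background on either array. The other 4 of 6 genes were, among them Prm1, the sperm protamine, at 1261 signal units with agonists and 850 with antagonists (log2 ratio 0.33). The summed scaled level of this list was 2.46 with agonists and 2.09 with antagonists.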
